A study of Homo sapiens with 12 samples.

Results

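The S100 calcium-binding genes are described here as 10 genes, *S100A2*, *S100A4*, *S100A6*, *S100A8*, *S100A9*, *S100A10*, *S100A11*, *S100A13*, *S100A16* and *S100P*, of the 58302 genes in the count table and of the 20 protein-coding S100 genes among them. They were chosen by symbol, matched from the Ensembl identifiers through GENCODE v44, after *S100A8* and *S100A9* had been seen to be lower in *MIB1* knockout cells. The contrast of knockout against wild-type cells was therefore used in the choice, and its values are given for these genes as a description without a p value. Counts of members that pass in it are listed only for completeness and are no support. The other comparisons are the response to BMP in wild-type and in knockout cells and the difference between both responses. All of them share libraries with the contrast of knockout against wild-type cells. All 10 genes passed the filter on low counts.

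RNA was sequenced from NCIH838 lung cancer cells in which doxycycline (Dox) switches on Cas9 and thereby the knockout of *MIB1*, which encodes an E3 ubiquitin ligase (MIB1-iKO cells). The line was grown from a single cell, and the guide RNA in the cells used for this experiment is not named. All cells first spent 3 days in 50 nM LDN, an inhibitor of BMP receptors, with 0.5 μg/mL Dox (KO) or without it (WT), and then 24 hours in 10 ng/mL BMP4, where LDN was kept (BMP-off) or replaced by DMSO (BMP-on). Each of the 4 groups, WT BMP-off, WT BMP-on, KO BMP-off and KO BMP-on, had 3 replicates, so that there were 12 libraries. Because Dox was given to the KO cells alone, MIB1 loss cannot be told apart from what Dox or Cas9 cutting does by itself. Nothing states that replicates were separate cultures, and p values then measure only the spread between these samples.

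S100 proteins are small proteins with EF-hand motifs that mostly work as dimers. Upon binding calcium, they open a surface that grips partner proteins such as annexins, myosin and ezrin, and some members are also released from cells and act on receptors such as RAGE (*AGER*) and TLR4. Many S100 genes lie in a cluster on chromosome 1q21 beside genes of the epidermal differentiation complex, and several of them are often changed in lung cancer.

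In these cells, BMP raised *S100P* and lowered *S100A4*, each in both WT and KO cells. *S100A9* passed as lower with BMP in KO cells, but its groups overlapped. The KO libraries also enter the contrast used in the choice of genes. *S100P* rose by 1.70-fold in WT and 2.52-fold in KO cells, and *S100A4* fell by 20.5% in WT cells and fell by 18.7% in KO cells. The difference between both responses did not pass for either gene. In the main fit, which has no correction for GC content, the abundant members *S100A6*, *S100A10*, *S100A11* and *S100A16* differed by less than 6% with BMP. None of the 4 passed. With the correction, 3 of them passed as lower in KO cells, with log2 fold changes from -0.21 to -0.13. *S100A8* and *S100A9*, which are scarce in these cells, had lower levels in KO than in WT cells with and without BMP signaling.

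*MIB1* itself, as a check of the labels, ranged from 144 to 176 CPM (counts divided by the library size after TMM and scaled) in the 6 WT libraries and from 31.0 to 34.4 CPM in the 6 KO libraries. Total counts per library ranged from 19124010 to 29498000. Of 6 epithelial markers, 5 were detected well enough to be tested, and *KRT19* reached at most 2 counts. Among 6 lung lineage markers, *NKX2-1* and the 4 surfactant genes reached at most 2 counts in any library, and *NAPSA* reached at most 1.03 CPM. All 5 squamous or basal markers stayed under 1 CPM in every library.

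On GRCh38, 9 of the 10 genes lie on chromosome 1 between 151982915 and 153632039, a stretch of 1.65 Mb with 16 S100 genes. Measured between the lower coordinates of the genes, *S100A10* and *S100A11* lie 1375 and 1325 kb away from *S100A9*. The other members on this chromosome lie within 261 kb of *S100A9* by the same measure. *S100P* (ENSG00000163993) lies alone on chromosome 4, from 6693878 to 6697170. *S100A9* (ENSG00000163220, 153357854 to 153361023, plus strand) and *S100A8* (ENSG00000143546, 153390032 to 153391073, minus strand) are neighbors, with *S100A12* between them. *S100A4* (ENSG00000196154) spans 153543613 to 153550136 and overlaps *S100A3* on the same strand. *S100A6* and *S100A13* overlap genes on the opposite strand, ENSG00000238279 (12 to 42 counts) and *S100A1* (4 to 17 counts). Whether the counting used the strand is not given in the sources used here.

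The promoters of the 4 members on which the results turn are shown because BMP acts through SMAD proteins that bind DNA. They run from 250 bases before to 50 after the start of the RefSeq transcript, 5′ to 3′ on the strand of the gene, from RefSeq on GRCh38.p14. Capitals mark 2 motifs on either strand. CAGAC, which reads as GTCTG on the opposite strand, is the SMAD box, and GGCGCC is a GC-rich motif of the BMP SMADs. The positions are chr4:6693628-6693927 (plus strand) for *S100P*, chr1:153545757-153546056 (minus strand) for *S100A4*, chr1:153391024-153391323 (minus strand) for *S100A8* and chr1:153357604-153357903 (plus strand) for *S100A9*.
S100P: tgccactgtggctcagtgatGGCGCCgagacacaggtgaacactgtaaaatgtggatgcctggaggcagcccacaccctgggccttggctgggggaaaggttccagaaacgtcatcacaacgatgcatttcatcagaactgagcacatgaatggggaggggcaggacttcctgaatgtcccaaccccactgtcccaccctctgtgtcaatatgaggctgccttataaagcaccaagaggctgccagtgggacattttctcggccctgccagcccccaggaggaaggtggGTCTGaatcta
S100A4: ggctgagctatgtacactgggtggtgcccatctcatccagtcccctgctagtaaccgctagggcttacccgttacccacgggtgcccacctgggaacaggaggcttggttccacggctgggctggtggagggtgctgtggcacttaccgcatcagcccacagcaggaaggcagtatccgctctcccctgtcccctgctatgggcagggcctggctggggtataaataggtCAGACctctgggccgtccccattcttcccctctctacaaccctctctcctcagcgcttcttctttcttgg
S100A8: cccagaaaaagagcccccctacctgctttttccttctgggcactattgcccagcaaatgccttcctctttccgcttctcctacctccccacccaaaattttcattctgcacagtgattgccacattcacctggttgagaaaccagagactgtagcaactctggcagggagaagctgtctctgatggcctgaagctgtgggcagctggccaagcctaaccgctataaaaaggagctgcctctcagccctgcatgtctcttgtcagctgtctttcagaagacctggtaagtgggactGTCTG
S100A9: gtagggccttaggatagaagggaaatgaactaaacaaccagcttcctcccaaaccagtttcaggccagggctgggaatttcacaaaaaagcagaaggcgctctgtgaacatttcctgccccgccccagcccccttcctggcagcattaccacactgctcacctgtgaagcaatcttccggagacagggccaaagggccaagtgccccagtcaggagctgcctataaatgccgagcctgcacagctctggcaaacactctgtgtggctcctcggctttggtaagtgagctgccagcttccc

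GGCGCC was found in the *S100P* window, 230 bases before the start, and in none of the other 9 windows, against 19.2% of all 35116 promoters. The *S100P* window also held GTCTG, 39 bases after the start. CAGAC was present in 7 of the 10 windows and in 45.3% of all promoters. It began 20 bases before the start of *S100A4*, lay 45 bases after the start of *S100A8* as GTCTG, and was not in the *S100A9* window. TTNNGNAA, a loose form of the C/EBP site searched on both strands, was in 5 windows, with 2 matches each in *S100A8*, *S100A9*, *S100A11* and *S100P* and 1 in *S100A6*, and in 36.8% of all promoters. TGANTCA, the AP-1 site, was in the *S100A2* window only, against 7.71% of all promoters. No match overlapped one of another motif in the 10 windows. The start used for *S100A4* lies 4330 bases inside the GENCODE gene, whereas those of the other 3 genes match it. These matches describe the letters of each window and not binding.

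Levels between genes were compared per length, in RPKM (reads divided by gene length and library size, as normalized by the authors). *S100A11* was the most abundant member with 747 ± 24.1 RPKM (SD, n = 12), followed by *S100A6* with 650 ± 45.8 RPKM and *S100A10* with 450.0 ± 16.2 RPKM. These encode partners of annexins and of the ubiquitin ligase adaptor CACYBP, and S100A10 (p11) pairs with annexin A2 without the need for calcium. *S100A16* followed with 121 ± 6.66 RPKM. *S100A4*, known for binding nonmuscle myosin and for its link to metastasis, had 69.9 ± 10.6 RPKM, and *S100A13*, which takes part in the export of FGF1, had 65.0 ± 2.64 RPKM. *S100P*, a partner of ezrin, ranged from 9.80 to 28.2 RPKM. *S100A9* averaged 12.1 ± 5.15 RPKM, *S100A2* 4.94 ± 0.514 RPKM and *S100A8* 2.63 ± 1.48 RPKM. In each group, the ranges of the replicates kept *S100A11*, *S100A6*, *S100A10* and *S100A16* apart and in this order.

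**Figure D1:**
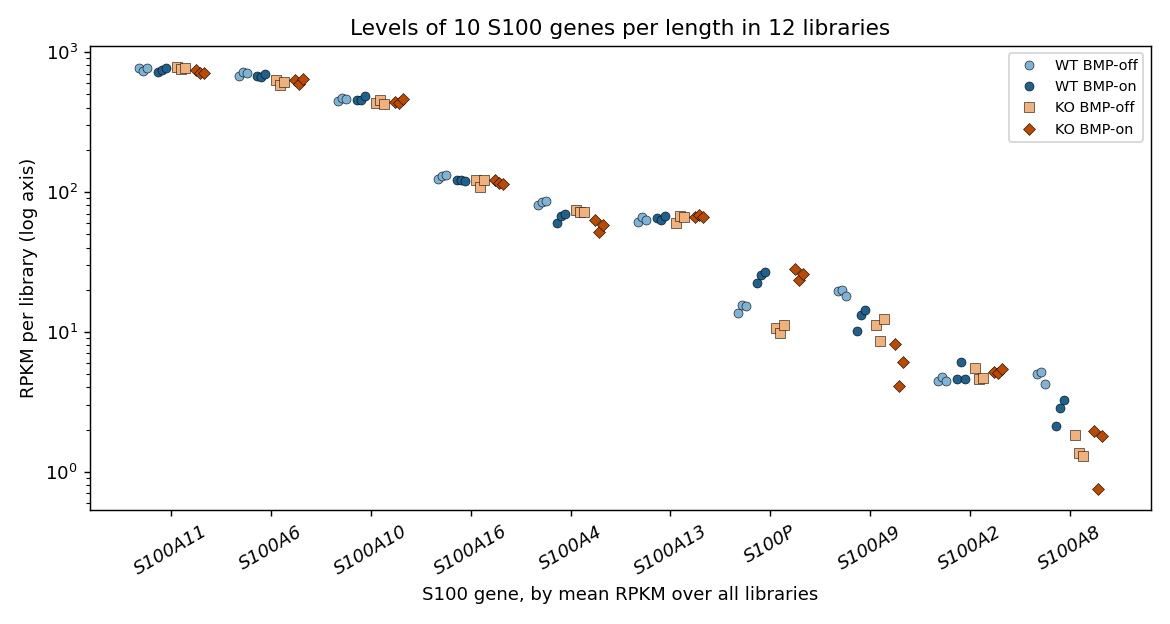
RPKM of each of the 10 S100 genes in the 12 libraries, on a log axis, with genes ordered by their mean and a symbol per library colored by group. The 6 genes at the left range from 51.7 to 780 RPKM, whereas *S100P*, *S100A9* and *S100A8* show the widest spread between groups.

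Lower in the order, neighbors changed place between groups. *S100A4* lay above *S100A13* in both BMP-off groups, overlapped with it in WT BMP-on and lay below it in KO BMP-on. *S100A9* (19.2 ± 1.11 RPKM, SD, n = 3) lay above *S100P* (14.8 ± 1.09 RPKM) in WT BMP-off. In KO BMP-off, their ranges overlapped, with a mean of 10.7 RPKM for *S100A9* and 10.5 RPKM for *S100P*. With BMP-on the order was turned, with 24.9 ± 2.29 RPKM for *S100P* and 12.5 ± 2.11 RPKM for *S100A9* in WT cells and 25.8 ± 2.43 and 6.15 ± 2.07 RPKM in KO cells (SD, n = 3). The ratio of *S100P* to *S100A9* thus ranged from 0.690 to 0.857 in WT BMP-off, from 0.908 to 1.13 in KO BMP-off, from 1.88 to 2.20 in WT BMP-on and from 3.43 to 5.69 in KO BMP-on. *S100A8* overlapped with *S100A2* in WT BMP-off and lay below it in the other 3 groups. Together, the 10 genes took between 0.172% and 0.195% of all counts in each library.

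The first comparison asked how BMP signaling changes these genes in WT cells. *S100P* had 16.4, 19.1 and 18.8 CPM in the 3 WT BMP-off libraries and 27.5, 31.6 and 33.2 CPM in the 3 WT BMP-on libraries. The groups did not overlap, and every BMP-on library was higher. The log2 fold change was 0.77 with a standard error (SE) of 0.0938 and an adjusted p of 0.000112. Adjusted p values here come from the quasi-likelihood test of edgeR, with the Benjamini-Hochberg method over all genes tested, and a gene passed at 0.05 or less. *S100A4* had 63.2, 67.6 and 67.5 CPM with BMP-off and 48.0, 54.2 and 55.4 CPM with BMP-on. Its groups did not overlap either, and every BMP-on library was lower. Its log2 fold change was -0.33 (SE 0.0707, adjusted p = 0.0118). Without WT BMP-off replicate 2 the adjusted p was 0.0609, and without WT BMP-on replicate 1 it was 0.0765 with a log2 fold change of -0.27.

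The pair *S100A8* and *S100A9*, whose proteins form calprotectin, a binder of zinc and manganese that neutrophils and monocytes store and release, came near the threshold in WT cells. *S100A8* had 85, 74 and 57 counts (3.05, 3.22 and 2.59 CPM) with BMP-off and 31, 52 and 56 counts (1.31, 1.78 and 2.01 CPM) with BMP-on. The groups did not overlap, with the lower values in BMP-on. The log2 fold change was -0.79 (SE 0.214, adjusted p = 0.0510), which missed the threshold of 0.05. *S100A9* had 10.7, 11.1 and 9.91 CPM with BMP-off and 5.65, 7.32 and 7.97 CPM with BMP-on, again without overlap. The log2 fold change was -0.60 (SE 0.180, adjusted p = 0.0938). The same libraries also enter the contrast through which *S100A8* and *S100A9* were noticed, so that their BMP responses are not independent of it. With the limma-voom fit after quantile normalization, as used by the authors, the adjusted p was 0.0407 for *S100A8* and 0.0290 for *S100A9*. Their log2 fold changes in that fit were -0.83 and -0.62, smaller in size than the 1 that the paper also required. *S100A8* passed in 10 of 23 alternatives and *S100A9* in 9 of 24, with the adjusted p up to 0.213 and 0.299.

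In all, 1 of the 10 members passed as higher in WT cells, against 1.91% of the 17188 genes tested, and 1 passed as lower, against 2.01%. None passed with at least a doubling or halving, against 0.425% of genes. At an unadjusted p under 0.05 there were 4 members, against 15.3% of genes. For 4 members the groups did not overlap, against 23.9% of genes. Both counts hold *S100A4*, *S100A8*, *S100A9* and *S100P*. *S100A8* and *S100A9* were noticed through a contrast that shares these libraries, so that nothing is read from either count. The median log2 fold change of the members was -0.019, against 0.0016 for all genes tested, and the median size was 0.13 against 0.10.

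The same comparison in KO cells gave the largest BMP response of a member. *S100P* had 12.9, 11.6 and 13.7 CPM with BMP-off and 35.2, 29.0 and 31.9 CPM with BMP-on. Every BMP-on library had at least 29.0 CPM and no BMP-off library reached 14 CPM. The log2 fold change was 1.33 (SE 0.0967, adjusted p = 1.25e-07). *S100A4* had 58.5, 55.3 and 57.0 CPM with BMP-off and 50.7, 41.4 and 46.6 CPM with BMP-on, again without overlap and lower with BMP-on. Its log2 fold change was -0.30 (SE 0.0717, adjusted p = 0.00734).

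*S100A9* had 6.14, 4.62 and 6.81 CPM in KO BMP-off and 4.64, 2.30 and 3.42 CPM in KO BMP-on. The groups met at 4.62 and 4.64 CPM, and KO BMP-on replicate 2, the library with the fewest counts in all, was the lowest. The log2 fold change was -0.73 (SE 0.211, adjusted p = 0.0245). Without KO BMP-on replicate 2 the log2 fold change was -0.54 and the adjusted p 0.0692. Without KO BMP-off replicate 1 the adjusted p was 0.0708, without KO BMP-on replicate 3 it was 0.0656, and in a fit of only the groups compared it was 0.0742. *S100A9* thus passed here in 20 of 24 alternatives. *S100A8* had 32, 20 and 19 counts (1.12, 0.803 and 0.799 CPM) in KO BMP-off and 32, 9 and 29 counts (1.23, 0.470 and 1.13 CPM) in KO BMP-on. These groups overlapped, with 1 BMP-on library below and 2 above every BMP-off library. The log2 fold change was 0.10 (95% interval -0.49 to 0.68, adjusted p = 0.854), and the low counts leave this interval wide. As in WT cells, these libraries also enter the contrast used in the choice. The BMP responses of *S100A9* and *S100A8* in KO cells are therefore not independent of it.

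**Figure D2:**
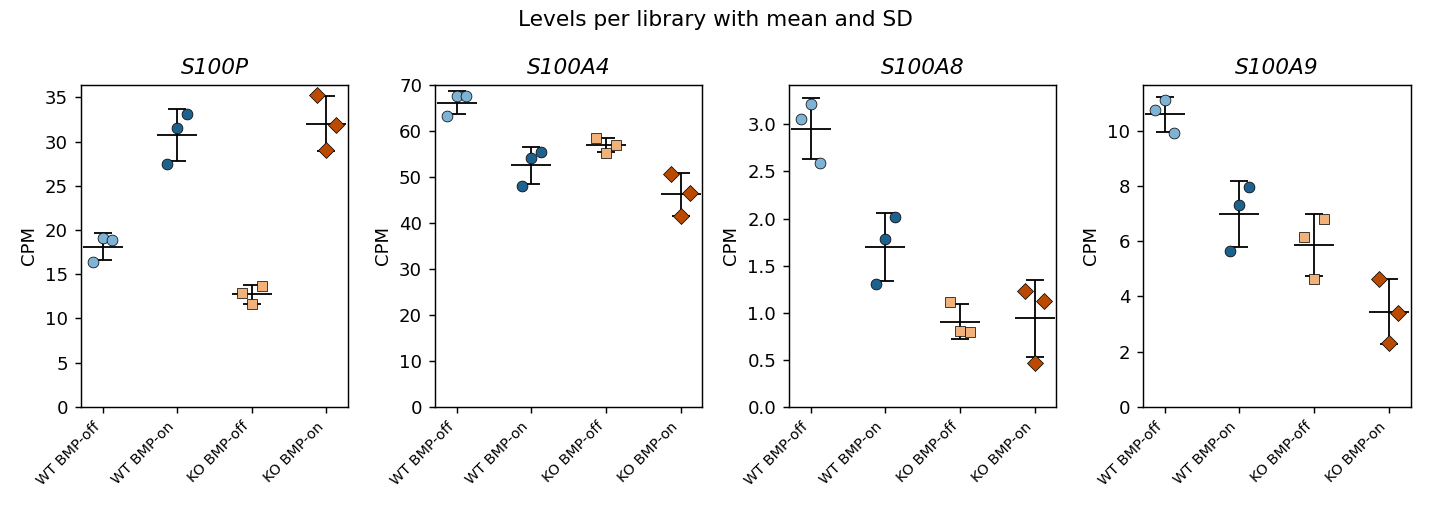
CPM of *S100P*, *S100A4*, *S100A8* and *S100A9* in each of the 12 libraries by group, with the group mean as a horizontal bar and the SD as an error bar (n = 3), on axes that start at 0. *S100P* is higher and *S100A4* lower with BMP-on in both WT and KO cells, and the *S100A8* and *S100A9* means are lower in KO than in WT cells.

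In KO cells, 1 member passed as higher, against 11.1% of genes, and 2 passed as lower, against 10.9%. The 2 were *S100A4* and *S100A9*, and *S100A9* was noticed through a contrast that shares these libraries. *S100P* alone was past 1 on the log2 scale as well, as were 1.66% of genes in either direction. The groups did not overlap for 3 members, against 35.8% of genes. The 3 were *S100P*, *S100A4* and *S100A13*. The median log2 fold change of the members was 0.059, against 0.0056 for all genes tested, and the median size was 0.092 against 0.17.

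The remaining 6 members did not pass in either cell state. *S100A11* had 421 to 436 CPM in WT BMP-off, 414 to 440 CPM in WT BMP-on, 418 to 441 CPM in KO BMP-off and 407 to 432 CPM in KO BMP-on, and these ranges overlapped. The 95% interval of its BMP response was -0.087 to 0.074 in WT and -0.14 to 0.024 in KO cells on the log2 scale. *S100A10* ranged from 515 to 587 CPM over all libraries, with intervals of -0.055 to 0.11 and -0.032 to 0.13. *S100A6* (calcyclin) ranged from 452 to 590 CPM, with intervals of -0.13 to 0.07 in WT and -0.034 to 0.17 in KO cells. *S100A16* ranged from 161 to 205 CPM, with intervals of -0.19 to 0.028 and -0.069 to 0.15. *S100A13* ranged from 52.4 to 61.0 CPM, with intervals of -0.058 to 0.17 and -0.023 to 0.20. *S100A2*, a member that p53 can induce, ranged from 6.54 to 9.24 CPM, with intervals of -0.047 to 0.43 and -0.12 to 0.35.

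Within groups, libraries differed in how counts followed the GC content of transcripts. After the mean of each group was subtracted, Spearman's rho across genes ranged from -0.60 to 0.59, both extremes being libraries of KO BMP-off. The GC correction was fitted to the trend of each library against the mean of all libraries. It therefore also removes GC trends between the groups, and whether these belong to the BMP response was not tested. With the correction, the BMP response of *S100A6* in KO cells was -0.21, that of *S100A16* -0.16 and that of *S100A11* -0.13 on the log2 scale. All 3 then passed in KO cells, as lower with BMP-on, and *S100A16* passed in WT cells at -0.13. *S100A6* and *S100A16* had positive values without the correction, so that their direction in KO cells depended on it. The longest transcripts of both are rich in GC, with 60.2% and 57.8%. The direction of *S100P*, *S100A4* and *S100A9* was kept with the correction in both cell states.

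**Figure D3:**
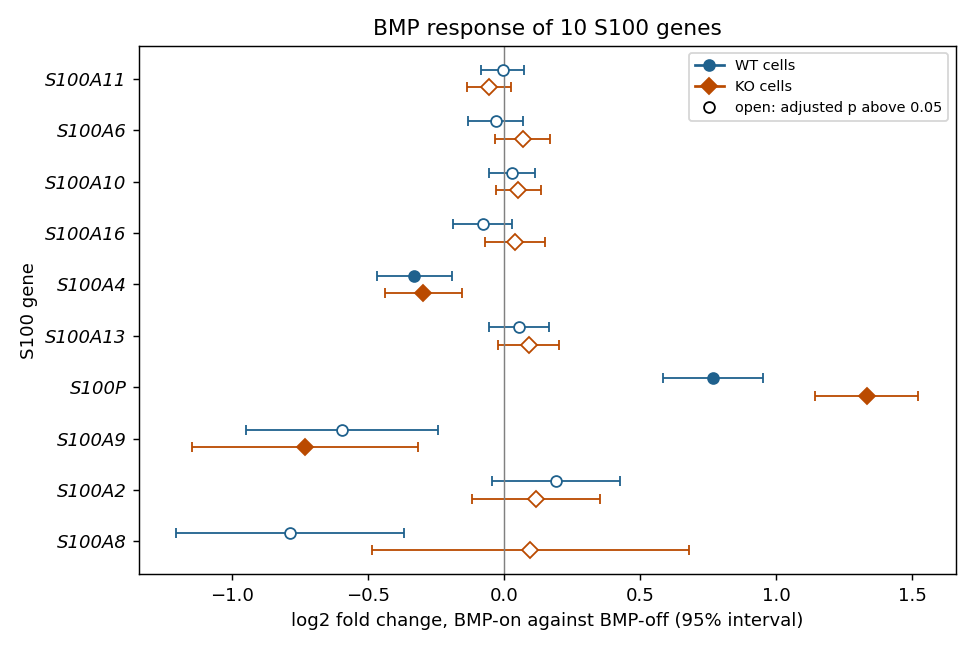
Log2 fold change of BMP-on against BMP-off for each of the 10 S100 genes in WT cells (circles) and KO cells (diamonds), with 95% intervals, filled where the adjusted p was at most 0.05. *S100P* lies to the right of 0 at 0.77 and 1.33 and *S100A4* to the left at -0.33 and -0.30, whereas *S100A11*, *S100A6*, *S100A10* and *S100A16* lie within 0.1 of 0 in both.

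The difference between both BMP responses was tested as an interaction. No member passed in this test (edgeR), and 0.0931% of genes did. *S100P* and *S100A8* had an unadjusted p under 0.05, against 10.6% of genes. For *S100P* the response was larger in KO cells by 0.57 on the log2 scale (95% interval 0.30 to 0.83, adjusted p = 0.0986). WT and KO cells differed mainly with BMP-off, with means of 18.1 and 12.7 CPM. With BMP-on, their means were 30.7 and 32.0 CPM. The interaction of *S100P* passed in 6 of 23 alternatives, with the adjusted p between 0.00106 and 0.333 over all of them. These were DESeq2 (0.0188), no filter on low counts (0.00106), the GC correction with or without a replicate term (0.0193 and 0.0137), and leaving out WT BMP-off replicate 1 (0.0355) or KO BMP-off replicate 3 (0.0356). In the same 6, between 0.896% and 1.37% of all genes tested passed. For *S100A8* the difference was 0.88 (95% interval 0.16 to 1.60, adjusted p = 0.406). The interaction is also the difference between both contrasts of KO against WT cells, through which *S100A8* and *S100A9* were noticed. Nothing is therefore read from its values for *S100A8* and *S100A9*. *S100A4* had a difference of 0.033 (95% interval -0.16 to 0.23) and *S100A9* one of -0.14 (95% interval -0.68 to 0.41), and neither passed. Over all members, the median difference was 0.034, against 0.012 for all genes tested.

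The contrast of KO against WT cells was used in choosing the genes, and its values follow as a description. With BMP-off, *S100A8* had 2.95 ± 0.324 CPM in WT against 0.906 ± 0.182 CPM in KO cells (SD, n = 3), a log2 fold change of -1.69 (SE 0.242). *S100A9* had 10.6 ± 0.621 CPM in WT against 5.86 ± 1.12 CPM in KO cells, a log2 fold change of -0.86 (SE 0.185). The KO libraries were the lower ones for both, with no overlap. *S100P* had 18.1 ± 1.48 and 12.7 ± 1.06 CPM, a log2 fold change of -0.51 (SE 0.0996). *S100A6*, *S100A4* and *S100A16* had log2 fold changes of -0.22, -0.21 and -0.16, and the other 4 members lay between -0.075 and 0.11. In bulk RNA, fewer cells that express a gene and less RNA per cell cannot be told apart.

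With BMP-on, *S100A9* had 6.98 ± 1.20 CPM in WT against 3.45 ± 1.17 CPM in KO cells (SD, n = 3), a log2 fold change of -0.99 (SE 0.206). *S100A8* had 1.70 ± 0.359 and 0.941 ± 0.411 CPM, a log2 fold change of -0.81 (SE 0.262). For *S100P*, WT cells had 30.7 ± 2.91 CPM and KO cells 32.0 ± 3.12 CPM, a log2 fold change of 0.060 (SE 0.0904). *S100A4* and *S100A6* had log2 fold changes of -0.18 and -0.12, and the other 5 members lay between -0.052 and 0.042. The ratio of *S100A9* to *S100A8* in RPKM was 4.01 ± 0.219 in WT BMP-off, 4.61 ± 0.200 in WT BMP-on, 7.35 ± 1.87 in KO BMP-off and 4.35 ± 1.04 in KO BMP-on (SD, n = 3).

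**Figure D4:**
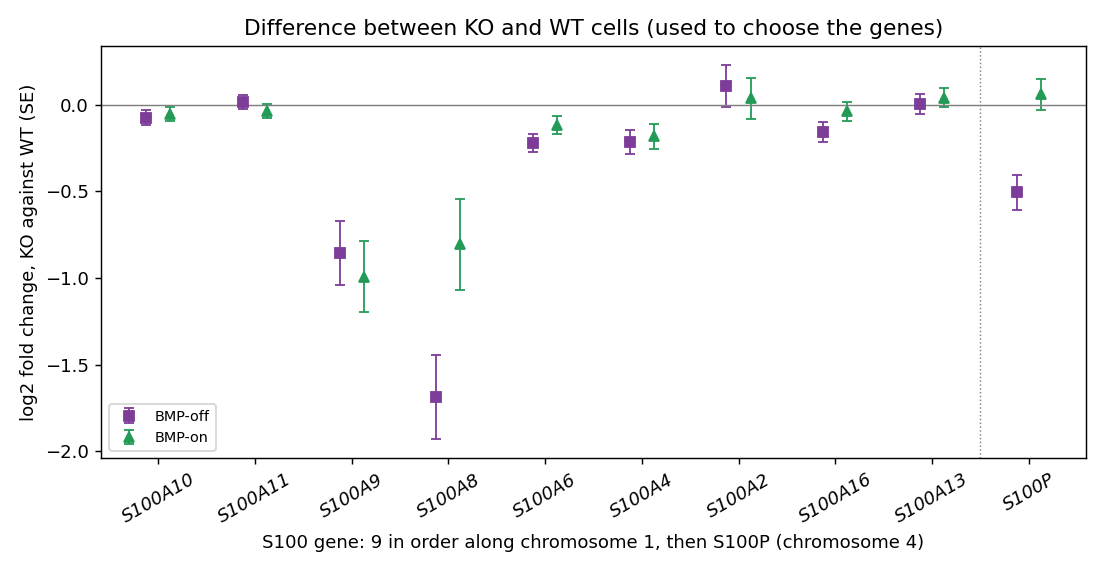
Log2 fold change of KO against WT cells with BMP-off (squares) and BMP-on (triangles) for each of the 10 S100 genes, in order along chromosome 1 with *S100P* of chromosome 4 last, with the standard error. *S100A9* and *S100A8* lie between -1.69 and -0.81, and the 7 other genes of chromosome 1 between -0.22 and 0.11.

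With BMP-off, the KO and WT groups did not overlap for 7 members, against 11.7% of all genes tested, and with BMP-on they did not overlap for 3 members, against 23.6%. The members were partly chosen on this contrast, so that nothing is read from these counts. The contrasts also share WT or KO libraries with the BMP responses above.

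*S100A8* and *S100A9* are best known from myeloid cells. Of 10 myeloid markers, 9 stayed under 1 CPM in every library, and *PTPRC* (CD45), *CSF3R* and *FCGR3B* were at 0 counts in all libraries, where a count of 0 allows up to 0.157 CPM in the smallest library. *CD14* had 3.01 to 4.88 CPM. The summed level of the list ranged from 3.88 to 4.78 CPM in WT BMP-off, from 3.92 to 4.31 CPM in WT BMP-on, from 3.21 to 4.95 CPM in KO BMP-off and from 4.02 to 5.02 CPM in KO BMP-on. *S100A12*, which neighbors the pair on the chromosome and is a gene of the same cells, had 1 to 3 counts.

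Of the 10 S100 genes outside the members, 2 had enough counts to be tested and neither passed in any of the 5 comparisons. *S100A3*, which lies within *S100A4*, had 1.94 to 2.50 CPM in WT BMP-off and 1.08 to 1.47 CPM in WT BMP-on. Its log2 fold change there was -0.74 (SE 0.218, adjusted p = 0.0721), and in KO cells it was -0.54 (adjusted p = 0.0981). *S100A3* had 25 to 59 counts per library, against 793 to 1759 for *S100A4*. *S100A1* had 4 to 17 counts. *S100A5*, *S100A7*, *S100A12*, *S100A14* and *S100G* had at most 7 counts, and *S100A7A*, *S100B* and *S100Z* were at 0 in every library.

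Among 14 tested partners inside the cell, none passed in WT cells, and 3 rose and 3 fell with BMP in KO cells, where 11.1% of all genes tested passed as higher and 10.9% as lower. *MYH14*, a nonmuscle myosin, rose by 0.57, *ANXA1*, the annexin bound by S100A11, by 0.26 and *ANXA11*, another annexin, by 0.19 on the log2 scale (adjusted p = 0.0216, 0.0101 and 0.0255). *IQGAP1*, a scaffold bound by S100P, fell by 0.30, *CACYBP*, bound by S100A6, by 0.20 and *EZR*, which encodes ezrin, by 0.18 (adjusted p = 0.000182, 0.0123 and 0.0140). With BMP-on, *IQGAP1* also was lower in KO cells, at -0.17 against WT cells (adjusted p = 0.0494). *S100PBP*, which encodes the S100P binding partner, had 45.7 to 55.3 CPM and did not pass in any comparison.

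Of 7 receptors, 4 were tested. *AGER*, which encodes RAGE, had 1.97 to 4.96 CPM and did not pass in any comparison, and *TLR4* had at most 1 count. *ALCAM*, an adhesion receptor, fell with BMP by 0.23 in WT and 0.38 in KO cells on the log2 scale (adjusted p = 0.0453 and 0.000311), and in the BMP-on groups was lower in KO cells (log2 fold change -0.25, adjusted p = 0.0288). *MCAM*, an adhesion receptor that can bind S100A8 and S100A9, fell by 0.25 in KO cells (adjusted p = 0.0396). Of 7 fused-type S100 genes, 4 were tested, and *TCHH* (trichohyalin) fell by 0.26 with BMP in KO cells (adjusted p = 0.0253). Of 39 neighbors in and near the epidermal differentiation complex, 29 were at 0 in every library, 3 were tested and none passed in any comparison. Among epithelial markers, *KRT7* rose with BMP by 0.55 and 0.85 and *EPCAM* fell by 0.56 and 0.61 in WT and KO cells (adjusted p = 0.00331, 2.31e-05, 0.00794 and 0.00152), and *KRT8* rose by 0.61 in KO cells (adjusted p = 0.00413). Of 5 fibroblast markers, 3 stayed under 1 CPM in every library and 2 were tested. *COL1A1* rose by 1.39 and *PDGFRB*, with only 0.631 to 1.44 CPM, by 0.92 with BMP in KO cells (adjusted p = 0.000602 and 0.0141). Of all genes tested, 11.1% passed as higher and 10.9% as lower with BMP in KO cells. No gene of any of these lists passed in the interaction.

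The genes whose levels over the 12 libraries were most like those of *S100A8* were *ATRAID*, *LRMDA*, *C5AR2*, *RNF5* and *MANBA*, with Pearson's r of log2 CPM between 0.88 and 0.92. For *S100A9* they were *PCSK1*, *SLPI*, *COL4A4*, *YBX2* and *VKORC1*, with r between 0.94 and 0.95. These are descriptions over libraries that share the same 4 groups. *S100A8* and *S100A9* had an r of 0.88 with each other, at which *S100A9* ranked 9 among the genes most like *S100A8* and *S100A8* ranked 92 among those most like *S100A9*. *S100A6* ranked 35 for *S100A8*, with an r of 0.83, and *S100A4* ranked 22 for *S100A9*, with an r of 0.92. *S100P*, in turn, had an r of 0.028 with *S100A8* and of -0.31 with *S100A9*.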

How the data were processed

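RNA-seq of 12 libraries from MIB1-iKO NCIH838 cells was used, 3 for each of 4 groups taken from the labels. The paper states that ribosomal reads were removed, and single-end reads aligned to GRCh38 with GSNAP and counted over RefSeq exons with HTSeqGenie. The deposited counts carry Ensembl identifiers, so that the gene models behind them are not certain. The deposited counts are whole numbers without normalization, and the deposited RPKM values were normalized by the authors per gene length and library. The RPKM served for levels between genes and for alternatives. Which of 2 library kits was used is not given in the sources used here. Symbols came from GENCODE v44 for 57532 of 58302 identifiers, and 0 sample columns were left out.

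The count test was that of edgeR 4.0.16 in R 4.3.3 (TMM, default filter on low counts, robust quasi-likelihood fit over all libraries, 17188 genes), with Benjamini-Hochberg adjustment over all genes. A gene passed at an adjusted p of at most 0.05. Intervals are the estimate ± 1.96 standard errors. Tables, correlations and motif searches used Python 3.11.15. The procedure was tested on simulated data. Other settings tried were quantile normalization before limma-voom (limma 3.58.1), DESeq2 1.42.0, upper-quartile or library-size scaling, no filter, at least 10 counts in every library, a fit of the groups compared, a replicate term, a GC correction (loess per library, span 0.4), log2(RPKM + 1) or log2(RPKM + 0.1) values and each library left out in turn. The 10 members, the gene lists and the rule for naming genes (all members, list genes that passed, the 5 genes most like *S100A8* and *S100A9*) were chosen with earlier results of these data known. Replicate numbers were checked for pairing, and counting error limits the scarce *S100A8* most, with 9 to 85 counts per library.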

Additional observations from a re-analysis of the deposited data

How the results depend on the processing

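In the BMP responses, *S100P* and *S100A4* kept their direction under every alternative run, and *S100P* also passed under each. With each library left out, *S100P* ranged from 0.70 to 0.84 in WT and from 1.25 to 1.39 in KO cells on the log2 scale, and *S100A4* from -0.37 to -0.27 and from -0.38 to -0.23. Of members that passed, WT cells had 2, which became 4 with limma-voom, without a filter or with only the groups compared. It became 5 with the GC correction, and also 5 with replicate block and GC correction together. The members gained were *S100A8* and *S100A9*, and with the GC correction also *S100A16*. *S100A8* and *S100A9* were noticed through KO against WT, which shares these libraries, so that nothing is read from their gain. Leaving out 1 library gave 1 to 4, with 2.09% to 6.39% of all genes passing. Over all genes tested, the share that passed also rose from 3.92% to 4.11% with limma-voom, 5.99% with only the groups compared and 8.96% with the GC correction (8.28% with the block), and was 3.02% without a filter. The count of members was 1 without WT BMP-off replicate 2 or WT BMP-on replicate 1. It was 4 without KO BMP-off replicate 2, KO BMP-on replicate 1 or KO BMP-on replicate 2, where *S100A8* and *S100A9* were again the members gained. In KO cells, 3 (22% of all genes) became 6 with the GC correction alone (24.7%) or with the block as well (23.4%). Leaving out 1 library gave 2 to 3 there, with 13.2% to 30.4% of all genes passing.

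KO against WT was used in choosing the genes, and nothing is read from its counts of members at an adjusted p of at most 0.05, which are given for completeness. *S100A8* and *S100A9* were noticed through this contrast, so that the choice itself favored their passing in it. With BMP-on, the count was 1 (*S100A9*, with 3.67% of all genes). It became 2 without a filter and 3 with the GC correction (2.48% and 7.39% of all genes). With each library left out it was 0 to 1 (1.86% to 4.93% of all genes). It was 0 without WT BMP-on replicates 2 or 3 or KO BMP-on replicate 3. With BMP-off, the count was 1 (*S100A8*, with 0.0407% of all genes). It became 3 with DESeq2 (0.204% of all genes) or the GC correction (0.559%, and 0.495% with the block), and 4 without a filter (0.673%). It became 0 on the log2(RPKM + 1) or log2(RPKM + 0.1) scale (0.0146% and 0.0195%). It was also 0 with at least 10 counts in every library (0.0466%), which drops *S100A8* from the test. Leaving out 1 library gave 0 to 2 (0.0114% to 0.286% of all genes). The count was 0 without WT BMP-off replicate 2 and 2 without WT BMP-off replicate 1 or KO BMP-off replicate 3. For the interaction, the count was 0 (0.0931% of all genes). It became 1 (*S100P*) with DESeq2 (0.896%), without a filter (0.919%) and with the GC correction (1.37%, and 1.13% with the block). With each library left out it was 0 to 1, with 1 without WT BMP-off replicate 1 (1.35%) or KO BMP-off replicate 3 (1.26%). A fit of only the groups compared gives no interaction.

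Directions turned for some members, and with the GC correction *S100A6* and *S100A16* passed in KO cells in the turned direction. With limma-voom, *S100A6* was 0.014 in WT cells, *S100A8* -0.091 and *S100A11* 0.00033 in KO cells, and *S100A11* 0.0055 in the interaction. With the GC correction, in KO cells *S100A16* was -0.16, *S100A13* -0.030 and *S100A6* -0.21, and in the interaction *S100A16* was -0.026, *S100A13* -0.052, *S100A4* -0.057 and *S100A6* -0.10. With replicate block and GC correction together, these were -0.16, -0.029 and -0.21 in KO cells and -0.025, -0.051, -0.057 and -0.099 in the interaction. *S100A8* in KO cells was -0.022 on the log2(RPKM + 1) and -0.072 on the log2(RPKM + 0.1) scale. With each library left out, ranges in the BMP responses and the interaction that crossed 0 were -0.0039 to 0.045 for *S100A10* and -0.027 to 0.014 for *S100A11* in WT cells, -0.030 to 0.065 for *S100A16* and -0.13 to 0.36 for *S100A8* in KO cells, and in the interaction -0.011 to 0.047 for *S100A10*, -0.018 to 0.056 for *S100A13*, -0.15 to 0.075 for *S100A2*, -0.046 to 0.10 for *S100A4* and -0.42 to 0.056 for *S100A9*. In KO against WT, ranges also crossed 0 for *S100A2* (-0.039 to 0.19) and *S100P* (-0.015 to 0.12) with BMP-on and for *S100A13* (-0.017 to 0.058) with BMP-off. The causes were not tested.

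Of 18 pairs of libraries with the same replicate number in different groups, 2 had a correlation of residuals above 0.1, which is little sign of pairing. It cannot exclude pairing, because the trends of single libraries with GC content also enter the residuals. The paper states that cells were divided between the media with and without LDN after 3 days. Whether the replicate numbers follow this division is not given. With the replicate block alone, 2 members passed in WT cells, 3 in KO cells, 1 in each contrast of KO against WT and 0 in the interaction, as without it. Depth limits *S100A8* most, since its counts are under 100 in every library.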

Other observations

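The genes most like *S100P* over the 12 libraries, a list chosen after the values were seen, were *PMEPA1*, *CALHM2*, *GRAMD2A*, *ZNF503* and *DHRS3*, with Pearson's r of log2 CPM between 0.95 and 0.98. *PMEPA1*, an inhibitor of TGF-β family signaling, had the highest r. The change of *PMEPA1* with BMP was 0.38 and 0.61 on the log2 scale in WT and KO cells, and against WT cells the KO cells were at -0.18 with BMP-off and 0.055 with BMP-on. All 5 genes had positive values with BMP in both cell states and a value below 0 for KO against WT with BMP-off.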
